A study of Mus musculus with 5 samples.

Results

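The nuclear genes of respiratory complex I were followed in RNA-seq libraries of neonatal mouse hearts with and without the long noncoding RNA Charme. They were taken by symbol: every gene whose symbol starts with Nduf, apart from symbols with -ps, that had at least 10 counts in at least 2 of the 5 libraries. The deposited counts list 50 Nduf symbols, of which 49 lack -ps and 48 passed the count minimum, out of 14880 genes that passed it in all. Ndufa11b, with 2, 1 and 0 counts in CharmeWT pools 1 to 3 and 1 and 2 in CharmeKO pools 1 and 2, was the gene that did not pass. The 48 genes are 36 subunits of the complex, 8 assembly factors named Ndufaf, the related pair Ndufa4 and Ndufa4l2, and 2 processed pseudogenes, Ndufb4c and Ndufs6b. All libraries were polyA RNA of whole hearts of C57BL6/J mice at postnatal day 2 (PN2). The 3 CharmeWT libraries each came from a pool of 9 hearts of wild-type littermates. The 2 CharmeKO libraries each came from a pool of 3 hearts of mice whose Charme locus carries an inserted PolyA signal. An effect of pool size (9 hearts against 3) and one of genotype cannot be told apart. The sources name no other allele and no treatment, and p-values measure the spread between pools.

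Complex I (NADH:ubiquinone oxidoreductase) is the first enzyme of the mitochondrial respiratory chain. It takes electrons from NADH in its N module, passes them along iron-sulfur clusters to ubiquinone in its Q module, and pumps protons through its membrane arm. The catalytic core is shared with bacteria. Its hydrophobic part is encoded by the mitochondrial genome and the rest by nuclear genes, together with accessory subunits that stabilize the enzyme. Assembly factors help to build it and are not part of the finished complex. The heart depends on respiration and is rich in mitochondria, and the switch from glycolysis toward oxidative metabolism takes place around birth.

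Between 16721055 and 21646378 counts per pool fell on genes, and counts were scaled by TMM, edgeR's normalization on the bulk of the genes. Charme itself had 810, 183 and 276 counts in the CharmeWT pools and 57 and 79 in the CharmeKO pools, with a log2 fold change of -2.49 (SE 0.549, adjusted p = 0.0763). All 10 cardiomyocyte markers were found in every pool, with at least 3280 counts each, and together they took 5.11% to 6.20% of the counts in CharmeWT pools, 4.59% in CharmeKO pool 1 and 5.22% in CharmeKO pool 2. The CharmeKO pools also held RNA of other tissues. The 7 salivary gland markers took at most 0.000382% of counts in CharmeWT pools, 0.0277% in CharmeKO pool 1 and 2.55% in CharmeKO pool 2. Ucp1, the uncoupling protein of brown adipocytes, which are themselves rich in mitochondria, had 77, 0 and 0 counts in CharmeWT pools and 521 and 15830 in CharmeKO pools 1 and 2. The 7 brown adipocyte markers together took 0.0686% to 0.0847% of counts in CharmeWT pools, 0.0750% in CharmeKO pool 1 and 0.223% in CharmeKO pool 2. Of these, Cox7a1 is also in the list of complexes II to V below. Markers of red blood cells took 0.0891% to 0.128% in CharmeWT pools, 0.193% in CharmeKO pool 1 and 0.167% in CharmeKO pool 2.

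The subunit genes were among the well expressed genes of the neonatal heart. Their mean level in CharmeWT pools, in counts scaled to exon length and library size (FPKM), had a median of 164 over the 36 subunits, against 3.84 over all genes tested. The highest was Ndufb9, a subunit of the distal membrane arm, at 464 ± 53.6 FPKM (SD, n = 3), and the lowest was Ndufb2, from the same arm, at 2.83 ± 0.580. Ndufb2 shares 145 bases of exon with Gm42420 on the same strand, so fragments there may have been counted for neither gene, and its level is uncertain. The distance between Ndufb9 and Ndufb2 was 164-fold, and 9.20-fold once Ndufb2 was left out. The levels of Ndufb8 and Ndufb9 are uncertain in the same way, since they share 134 and 201 bases with another gene model on their own strand. Levels within a module depended on the exons counted in the length. In the N module core, Ndufv2 and Ndufv1 had nearly the same level in CharmeWT pools (237 ± 30.3 and 236 ± 24.2 FPKM), and Ndufs1, the largest of its iron-sulfur subunits, stood at 68.2 ± 5.54. With the length of the principal transcript in place of all exons, Ndufv1, Ndufv2 and Ndufs1 were at 375, 300 and 207 FPKM. The 8 assembly factors had a median of 13.8 FPKM and ranged from 4.31 for Ndufaf2 to 25.0 for Ndufaf8, with none as high as any subunit other than Ndufb2. Ndufaf2 was not the lowest on the principal transcript, where it was at 18.9 FPKM, above Ndufaf3, Ndufaf4, Ndufaf5 and Ndufaf6. Ndufa4 was at 392 ± 65.4 FPKM and its paralog Ndufa4l2 at 23.7 ± 1.46.

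**Figure D1:**
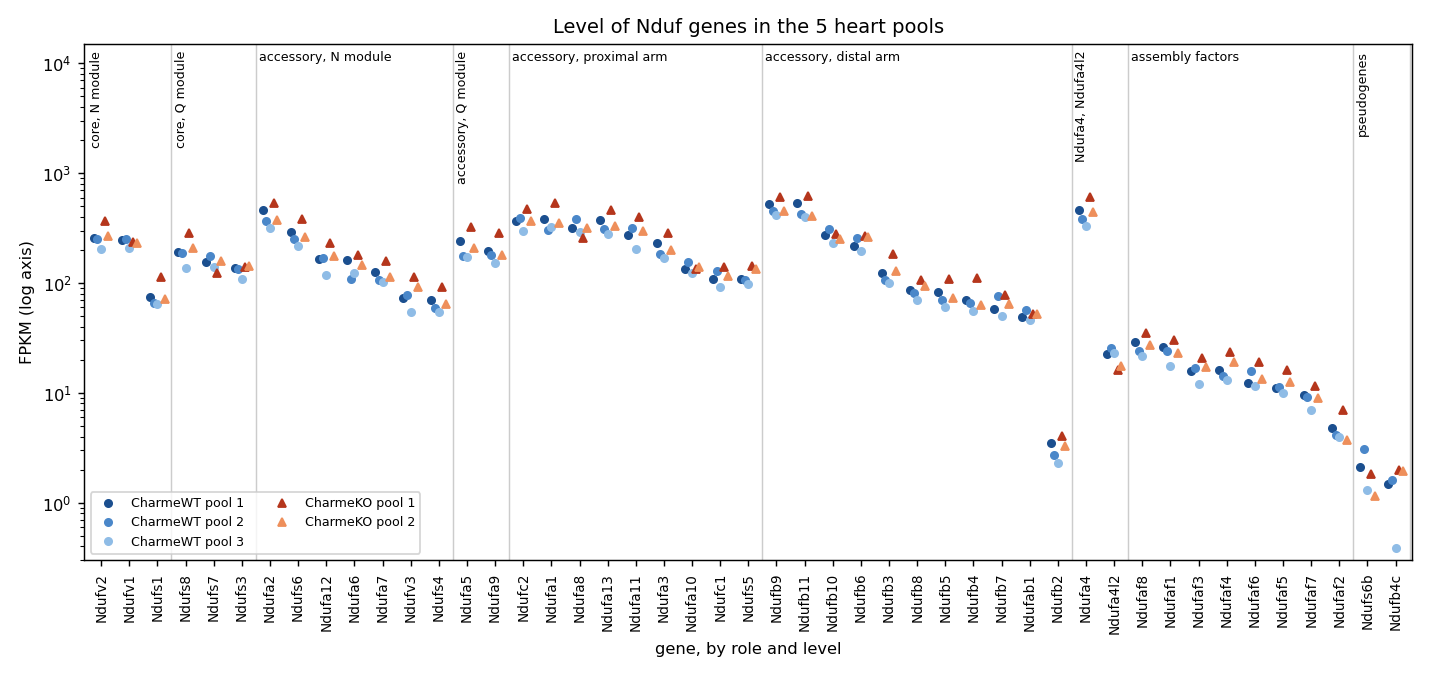
Level of 47 of the 48 Nduf genes in the 5 heart pools, in FPKM on a log axis, with genes grouped by role and ordered by their CharmeWT mean; circles are the 3 CharmeWT pools and triangles the 2 CharmeKO pools. The assembly factors, at 4.31 to 25.0 FPKM on average in CharmeWT pools, lie below all subunits except Ndufb2, which stands apart at 2.83 FPKM.

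No Nduf gene passed the test between CharmeKO and CharmeWT hearts. A gene was called when its adjusted p in edgeR's quasi-likelihood test was under 0.1 and its mean reached 1 FPKM in a genotype. By this rule 0 of the 48 genes were called, where 2.05% of all genes tested were called. The adjusted p-values of the 48 ran from 0.183 to 0.982. With the likelihood ratio test 0 were called as well (6.27% of all genes), and with DESeq2 1 was called, Ndufv3 (8.35% of all genes). At an unadjusted p under 0.05 there were 6 genes, 5 with higher estimates (10.6% of all genes) and 1 with a lower one (8.01% of all genes). The estimates nevertheless lay mostly on one side. They were above 0 for 42 of the 48 genes, against 51.8% of all genes tested. With scaling by library totals 38 of the 48 were above 0, and the median was 0.14 over the 48 and -0.13 over all genes. Once a trend on exon length and GC content was removed in each pool (called the length and GC correction below), 34 of the 48 were above 0, against 46.2% of all genes. As first fitted, the median log2 fold change of the 48, CharmeKO over CharmeWT, was 0.31 (a fold of 1.24) against 0.02 over all genes. The median was 0.32 over subunits and 0.30 over assembly factors, beside a median standard error of 0.212 for a single gene. Both CharmeKO pools lay above every CharmeWT pool for 13 of the 48 genes (17.8% of all genes) and below every one for 1 (18.2% of all genes). In bulk hearts, fewer cells of a type and less RNA per cell cannot be told apart.

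**Figure D2:**
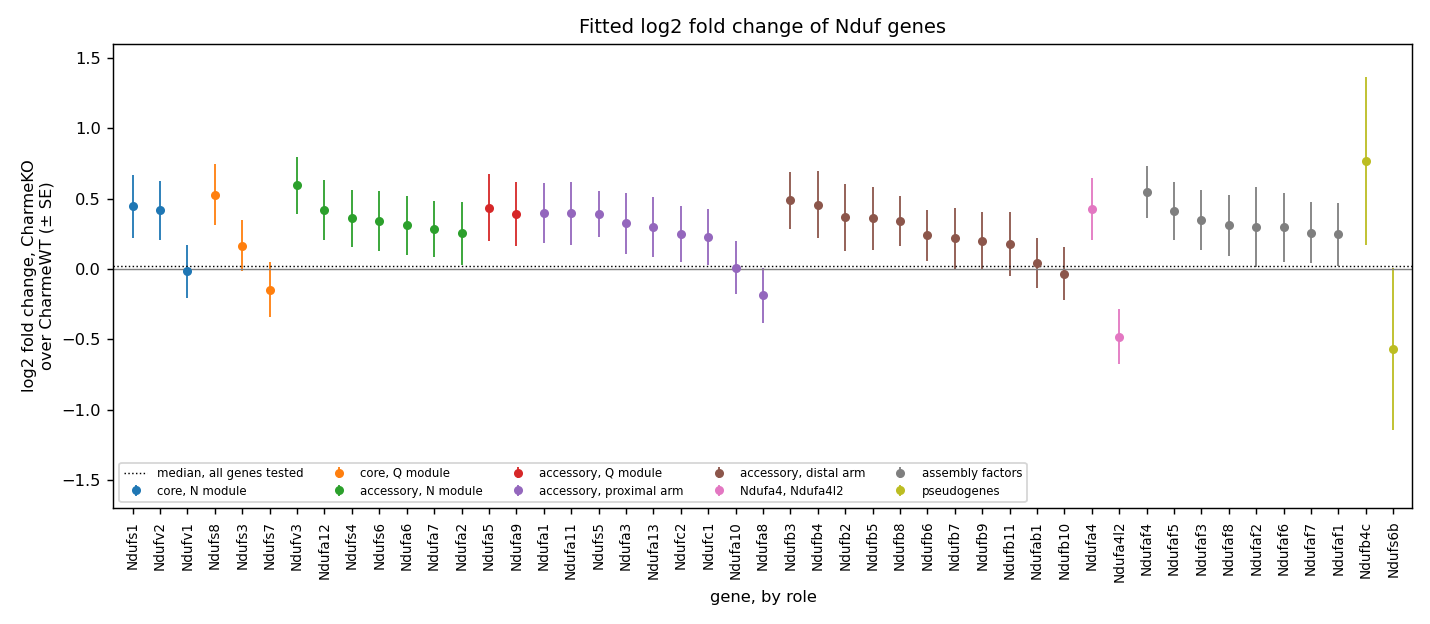
Log2 fold change of 47 of the 48 Nduf genes, CharmeKO over CharmeWT, with its standard error as a bar, by role; the dotted line is the median of 0.02 over all genes tested. Most estimates lie above 0 (42 of all 48 genes), and none passed the adjusted threshold.

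The 7 nuclear core subunits were split. In the N module, Ndufv1, which binds NADH and flavin, was at 246, 254 and 209 FPKM in the CharmeWT pools and 237 and 230 in the CharmeKO pools, with both CharmeKO values inside the CharmeWT range (log2 fold change -0.02, SE 0.188). Ndufv2, an iron-sulfur subunit beside it, was at 256, 253 and 202 FPKM in CharmeWT pools and 364 and 269 in CharmeKO pools, a log2 difference of 0.42 (SE 0.210, adjusted p = 0.313). Both CharmeKO pools were above the highest CharmeWT pool, but with the length and GC correction the estimate turned to -0.07. Ndufs1 was at 74.4, 66.4 and 63.8 FPKM in CharmeWT pools and 114 and 72.0 in CharmeKO pools, so the groups overlapped and the difference of 0.45 (SE 0.226) rested on CharmeKO pool 1.

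In the Q module, Ndufs8, which carries iron-sulfur clusters toward the ubiquinone site, had the highest estimate. It was at 191, 189 and 136 FPKM in CharmeWT pools and 287 and 209 in CharmeKO pools, a log2 fold change of 0.53 (SE 0.216, adjusted p = 0.242). Ndufs7, which holds the last cluster before ubiquinone, had the lowest estimate of the core. Its levels were 156, 176 and 139 FPKM in CharmeWT pools against 124 and 159 in CharmeKO pools, with CharmeKO pool 1 below and CharmeKO pool 2 within the CharmeWT range (log2 fold change -0.15, SE 0.193, adjusted p = 0.702). Ndufs3, an early member of the module in assembly, had a small difference with both CharmeKO pools above CharmeWT, at 136, 135 and 108 FPKM in CharmeWT pools and 141 and 142 in CharmeKO pools (0.17, SE 0.181). Over the 7 core genes the median log2 fold change was 0.17, beside 0.33 over the 29 accessory subunits. The difference between core and accessory genes was not tested.

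Accessory subunits of the N and Q modules all had estimates above 0, 7 of 7 and 2 of 2 (6 and 2 with the length and GC correction). The largest of any subunit was that of Ndufv3, a small accessory subunit of the N module. Ndufv3 was at 73.1, 77.3 and 54.6 FPKM in CharmeWT pools and 114 and 92.2 in CharmeKO pools, so that both CharmeKO pools were higher than all CharmeWT pools. The fold was 1.51 (log2 0.59, SE 0.203, adjusted p = 0.188 with edgeR's quasi-likelihood test, and adjusted p = 0.0992 with DESeq2). Ndufa2, the most abundant of the module by length of all exons but not of principal transcripts, had the smallest estimate there, 0.25 (SE 0.223), with 464, 363 and 318 FPKM in CharmeWT pools and 534 and 376 in CharmeKO pools. In the Q module, Ndufa5 had 243, 177 and 171 FPKM in CharmeWT pools against 326 and 207 in CharmeKO pools (0.44, SE 0.238), and Ndufa9 had 197, 180 and 153 against 283 and 180 (0.39, SE 0.226). In both genes CharmeKO pool 1 alone exceeded the CharmeWT pools.

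Of the 20 accessory subunits of the membrane arm, 18 had estimates above 0, and 14 with the length and GC correction. In the proximal arm Ndufa8, a twin-cysteine protein of the intermembrane space, was lowest. It was at 319, 379 and 288 FPKM in CharmeWT pools and 258 and 319 in CharmeKO pools, and the CharmeKO values overlapped those of CharmeWT (log2 fold change -0.19, SE 0.194, adjusted p = 0.620). Ndufa1, at the other end of this group, was at 384, 304 and 324 FPKM against 536 and 354 (0.40, SE 0.211). With the length and GC correction it was at 0.08, and Ndufa11 (0.46) and Ndufa13 (0.43) were highest. Ndufc2, the most abundant by length of all exons (Ndufa11 by principal transcripts), was at 367, 389 and 298 against 471 and 364 (0.25, SE 0.197). Ndufs5, a small twin-cysteine subunit there, was at 110, 107 and 97.5 FPKM in CharmeWT pools and 142 and 133 in CharmeKO pools (0.39, SE 0.164, adjusted p = 0.249), and its log2 fold change was 0.34 without CharmeKO pool 1 and 0.43 without CharmeKO pool 2, but 0.12 with the length and GC correction. In the distal arm Ndufb3 had the highest estimate, with 124, 107 and 99.6 FPKM in CharmeWT pools and 182 and 128 in CharmeKO pools (0.49, SE 0.201, adjusted p = 0.244). After correction for length and GC its estimate was 0.04, under those of Ndufb4 and Ndufb7 (both 0.40). Ndufb10, another twin-cysteine subunit, had the lowest there, with 271, 310 and 232 FPKM against 277 and 251 (-0.03, SE 0.189). Ndufb9 was at 522, 455 and 416 FPKM in CharmeWT pools and 613 and 453 in CharmeKO pools (0.20, SE 0.205).

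Ndufa4 and Ndufa4l2 had estimates of opposite sign, although that of Ndufa4 was -0.17 with the length and GC correction. The product of Ndufa4, first named as a complex I subunit, is now assigned to complex IV (cytochrome c oxidase), and Ndufa4l2 is a paralog known as a target of the hypoxia response. Ndufa4l2 had 508, 490 and 502 counts in CharmeWT pools and 251 and 431 in CharmeKO pools, or 22.5, 25.3 and 23.2 FPKM against 16.2 and 17.6. It was the only Nduf gene with both CharmeKO pools below every CharmeWT pool, at a log2 fold change of -0.48 (SE 0.197, adjusted p = 0.242). Ndufa4 was at 463, 382 and 333 FPKM in CharmeWT pools and 611 and 446 in CharmeKO pools (0.43, SE 0.221, adjusted p = 0.323), with CharmeKO pool 2 inside the CharmeWT range.

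All 8 Ndufaf assembly factors had estimates above 0, from 0.25 to 0.55, and for 3 of the 8 both CharmeKO pools were above every CharmeWT pool (17.8% of all genes). With the length and GC correction 6 of the 8 were above 0, with a median of 0.11 in place of 0.30, and without CharmeKO pool 1 Ndufaf2 was at -0.20. Ndufaf4, which works with Ndufaf3 in building the Q module, had the lowest p of all Nduf genes. Its levels were 16.1, 14.4 and 13.0 FPKM in CharmeWT pools and 23.5 and 18.9 in CharmeKO pools, a fold of 1.46 (log2 0.55, SE 0.185, adjusted p = 0.183). Ndufaf8, the most abundant, had 28.9, 24.2 and 21.8 FPKM in CharmeWT pools against 34.7 and 27.3 in CharmeKO pools (0.31, SE 0.218). The lowest estimate was that of Ndufaf1, a member of the intermediate assembly complex with Ecsit and Acad9, at 26.1, 24.1 and 17.7 FPKM in CharmeWT pools and 30.6 and 23.1 in CharmeKO pools (0.25, SE 0.226). Ndufaf2, a relative of the subunit Ndufa12 that is held by the enzyme late in assembly, differed more between the CharmeKO pools than any other Nduf gene. It was at 4.83, 4.16 and 3.94 FPKM in CharmeWT pools, 6.92 in CharmeKO pool 1 and 3.75 in CharmeKO pool 2, a distance of 0.86 on the log2 scale between pools of one genotype.

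Of the 2 pseudogenes, Ndufs6b passed the count minimum through CharmeWT pools 1 and 2 alone, with 15, 19 and 9 counts in CharmeWT pools and 9 and 9 in CharmeKO pools (log2 fold change -0.57, SE 0.577). Ndufb4c had 12, 11 and 3 counts in CharmeWT pools and 11 and 17 in CharmeKO pools. Reads of both are close in sequence to those of their parent genes Ndufs6 and Ndufb4, so these values are uncertain.

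The promoters of 3 genes with high estimates and of the subunit with the lowest estimate are shown, to set their sequences beside each other. They come from RefSeq on GRCm38.p6, run 5′ to 3′ from 250 bases before the start to 50 after, and matched 40 of the 48 genes. Capitals mark letters searched on both strands as short forms of known sites: GCATGCG (NRF1), CCGGAAG (ETS factors such as GABPA), AAGATGG (YY1) and AAGGTCA (ERR), all of them factors known for respiratory genes. The GCATGCG letters overlap their own reverse strand where a further C precedes them.
Ndufaf4, chr4:24897833-24898132, + strand: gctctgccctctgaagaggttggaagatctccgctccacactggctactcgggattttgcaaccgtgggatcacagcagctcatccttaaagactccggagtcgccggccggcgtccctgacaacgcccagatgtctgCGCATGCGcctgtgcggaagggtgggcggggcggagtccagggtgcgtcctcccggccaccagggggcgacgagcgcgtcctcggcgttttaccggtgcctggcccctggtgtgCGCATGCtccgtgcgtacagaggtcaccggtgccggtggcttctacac
Ndufs8, chr19:3912725-3913024, - strand: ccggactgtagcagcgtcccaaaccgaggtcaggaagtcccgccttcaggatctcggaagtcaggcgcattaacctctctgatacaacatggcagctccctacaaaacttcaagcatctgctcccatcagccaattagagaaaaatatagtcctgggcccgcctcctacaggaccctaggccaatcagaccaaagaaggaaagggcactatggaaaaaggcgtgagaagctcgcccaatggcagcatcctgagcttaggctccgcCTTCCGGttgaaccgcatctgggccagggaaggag
Ndufv3, chr17:31519865-31520164, + strand: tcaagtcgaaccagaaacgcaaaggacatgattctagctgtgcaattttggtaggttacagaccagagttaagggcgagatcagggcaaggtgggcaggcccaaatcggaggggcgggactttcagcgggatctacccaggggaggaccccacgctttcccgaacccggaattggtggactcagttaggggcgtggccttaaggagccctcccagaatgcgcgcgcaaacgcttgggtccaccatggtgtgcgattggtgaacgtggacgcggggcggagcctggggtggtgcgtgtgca
Ndufa8, chr2:36049289-36049588, - strand: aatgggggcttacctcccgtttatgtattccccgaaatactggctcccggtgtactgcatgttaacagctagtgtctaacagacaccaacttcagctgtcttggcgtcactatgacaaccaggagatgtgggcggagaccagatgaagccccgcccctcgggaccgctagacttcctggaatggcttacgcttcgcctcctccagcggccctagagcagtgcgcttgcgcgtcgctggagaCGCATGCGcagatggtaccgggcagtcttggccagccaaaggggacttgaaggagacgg

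The genes shown were not called by edgeR's quasi-likelihood test, and the estimate of Ndufa8 lay within 1 SE of 0. Ndufaf4 and Ndufa8, with log2 estimates of 0.55 and -0.19, both held the NRF1 letters, Ndufs8 held the ETS letters and Ndufv3 held none of those searched. Over the 40 promoters, the NRF1 letters were in 5 (12.5%, against 4.01% of the 27025 genes in the table): those of Ndufa6, Ndufa8, Ndufa11, Ndufaf4 and Ndufaf5. The YY1 letters were in 8 (20.0% against 7.28%), the ETS letters in 6 (15.0% against 9.93%) and the ERR letters in 3 (7.5% against 5.38%), namely Ndufb2, Ndufb4 and Ndufs5. The genes lie on 17 chromosomes, with at most 6 on one (chromosome 17).

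The members moved together from pool to pool, within genotypes as well as between them. For each gene, log2(CPM + 0.5), where CPM is the count scaled to library size, was taken relative to its mean over the 3 CharmeWT pools. The median over the 36 subunits was 0.14, 0.05 and -0.18 in CharmeWT pools 1 to 3, 0.50 in CharmeKO pool 1 and 0.07 in CharmeKO pool 2. CharmeKO pool 2 thus lay inside the span of the CharmeWT pools and CharmeKO pool 1 above it. CharmeWT pool 3 was the lowest of the 5 pools for 41 of the 48 genes, against 18.5% of all genes tested. CharmeKO pool 1 was above every CharmeWT pool for 40 of the 48 genes and below for 3 (39.1% and 38.6% of all genes), and CharmeKO pool 2 was above for 13 and below for 3 (30.4% and 29.9%). CharmeKO pool 1 was the highest of the 5 for 39 of the 48 (34.1% of all genes). Assembly factors followed the same order, at 0.16, 0.08 and -0.19 in CharmeWT pools and 0.51 and 0.10 in CharmeKO pools.

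**Figure D3:**
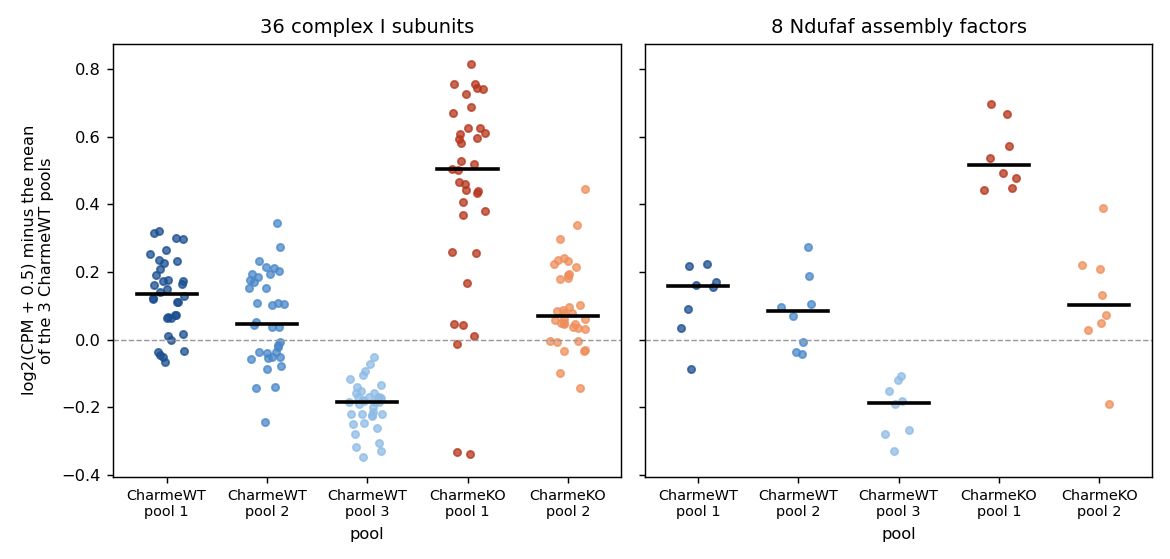
Log2(CPM + 0.5) of each gene minus its mean over the 3 CharmeWT pools, for 36 complex I subunits and 8 Ndufaf assembly factors; each point is a gene and each bar the median over genes. CharmeKO pool 1 has the highest median in both panels (0.50 and 0.51) and CharmeWT pool 3 the lowest (-0.18 and -0.19).

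The call for these genes therefore turned on which CharmeKO pool was kept. Without CharmeKO pool 2, 23 of the 48 genes were called higher (16.1% of all genes tested) and 1, Ndufa4l2, lower (15.6% of all genes). In that fit CharmeKO pool 1 stands alone and is taken to vary as the CharmeWT pools do. Ndufb4 then had the lowest adjusted p of them, 0.00898 at a log2 fold change of 0.81, but -0.01 without CharmeKO pool 1. Without CharmeKO pool 1, 0 of 48 were called (4.33% of all genes) and 0 had an unadjusted p under 0.05 in edgeR's quasi-likelihood test, and the median log2 fold change over the 48 was 0.07. CharmeKO pool 2, where the subunits lay near CharmeWT, is the pool with most salivary and brown adipocyte RNA. CharmeKO pool 1, where they were higher, had a TMM factor of 0.845, against 1.02 to 1.09 in the other 4 pools. Of all counts it had the lowest share on cardiomyocyte markers. On the scaled values used for the subunits, however, these markers had a median of 0.26 above CharmeWT there. Of the 10, 6 lay above every CharmeWT pool and 2 below (39.1% and 38.6% of all genes). Those below were Myh6, at a deviation of -1.09, and Actn2, at -0.41. Endothelial markers together were lowest in CharmeKO pool 1, at 0.0595% of counts against 0.0834% to 0.110% in CharmeWT pools and 0.0894% in CharmeKO pool 2. Their median deviation there was -0.72, but the 5 markers were split. On the scaled values 3 lay below every CharmeWT pool and 1, Pecam1, above. Fibroblast markers together took 0.128% of counts in CharmeKO pool 1, against 0.181% to 0.198% in CharmeWT pools and 0.253% in CharmeKO pool 2. Their median deviation in CharmeKO pool 1 was -0.17, with 3 of the 5 below every CharmeWT pool and 2, Dcn and Pdgfra, above. The part of these differences in the result was not tested. Without that factor the genes took 1.25%, 1.21% and 1.06% of all counts in CharmeWT pools and 1.27% and 1.22% in CharmeKO pools, with CharmeKO pool 1 just above and CharmeKO pool 2 within the CharmeWT range. Scaling by library totals alone moved the median of all genes to -0.13 and that of the 36 subunits to 0.14. With RLE and upper-quartile normalization the median of the subunits was 0.32 and 0.35. It was 0.31 in a fit without mitochondrial-genome and salivary genes.

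Fold changes were ordered by base composition in the same way as over all genes. GC content was taken from the longest transcript of each gene. Over the 46 protein-coding Nduf genes, Spearman's rho of log2 fold change with GC content was -0.44, and over 14852 genes tested it was -0.39. These are descriptions across genes of the same 5 libraries, and genes are not replicates. The 23 genes under the median GC of 50.1% had a median of 0.36 on the log2 scale and the other 23 one of 0.25. Ndufaf4 had the lowest GC of the 46 (39.5%) and Ndufa4l2 the highest (60.7%). With the length and GC correction the median over the 48 was 0.12. Of the 6 genes with an unadjusted p under 0.05, Ndufaf4 moved from 0.55 to 0.13, Ndufb3 from 0.49 to 0.04 and Ndufs5 from 0.39 to 0.12, while Ndufv3 (0.60), Ndufs8 (0.51) and Ndufa4l2 (-0.41) kept nearly the values they had.

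**Figure D4:**
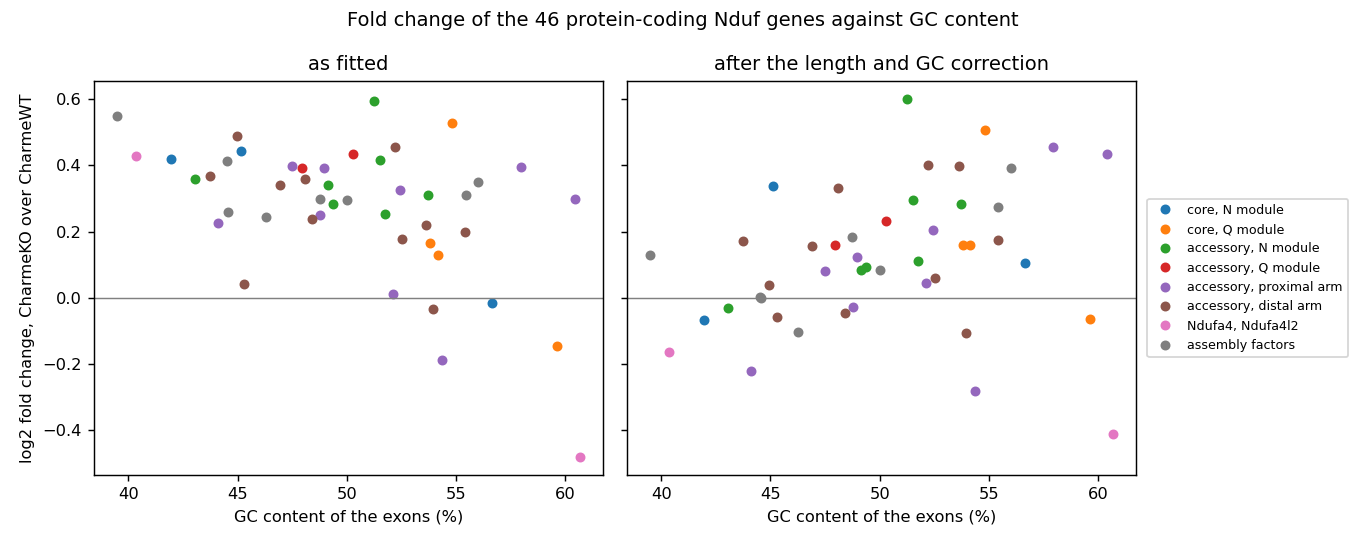
Log2 fold change, CharmeKO over CharmeWT, against GC content in percent for 46 protein-coding Nduf genes, colored by role, as fitted (left) and after a per-pool trend on length and GC was removed (right). GC content is that of the exons of the longest transcript of each gene. Ndufaf4 at 39.5% GC moves from 0.55 to 0.13, and Ndufa4l2 at 60.7% GC lies lowest in both panels.

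In the other nuclear lists of mitochondrial genes too, CharmeKO pool 1 had the highest median and CharmeWT pool 3 the lowest. The same held outside mitochondria, for 75 cytosolic ribosomal protein genes with a median log2 fold change of 0.54. Their median deviations were 0.21, -0.05 and -0.135 in CharmeWT pools and 0.70 and 0.39 in CharmeKO pools, with both CharmeKO pools above CharmeWT. For 64 of the 75 both CharmeKO pools were above every CharmeWT pool (17.8% of all genes). In edgeR's quasi-likelihood test 1 was called (2.05% of all genes) and 56 had an unadjusted p under 0.05 (18.6%). The likelihood ratio test called 19 and DESeq2 called 29 (6.27% and 8.35% of all genes). For the 42 nuclear genes of complexes II to V the median was 0.30 on the log2 scale, with 0 called by edgeR's quasi-likelihood test and 6 at an unadjusted p under 0.05 (18.6% of all genes tested, in either direction). The likelihood ratio test and DESeq2 each called 1 of the 42 (6.27% and 8.35% of all genes). In CharmeKO pools 1 and 2 their median deviation was 0.52 and 0.10, beside 0.50 and 0.07 for the complex I subunits. The lowest p there was that of Cox6b1, a subunit of cytochrome c oxidase, with 1112, 1018 and 798 FPKM in CharmeWT pools and 1844 and 1304 in CharmeKO pools (0.69, SE 0.232, adjusted p = 0.183). The 77 mitochondrial ribosomal proteins had a median of 0.26, with 0 called by that test, 18 at an unadjusted p under 0.05 and 4 called by each of the likelihood ratio test and DESeq2, beside the same shares of all genes. All these lists were compared in the same 5 pools, and differences between lists were not tested.

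The complex I subunits that the mitochondrial genome encodes lay far apart in the 2 CharmeKO pools. The 7 mt-Nd genes took 4.54% to 4.83% of all counts in CharmeWT pools, 9.55% in CharmeKO pool 1 and 4.48% in CharmeKO pool 2. mt-Nd2, a core subunit of the membrane arm, was at 6920, 7109 and 5981 FPKM in CharmeWT pools and 23630 and 7215 in CharmeKO pools, with CharmeKO pool 2 barely above the highest CharmeWT pool (1.21, SE 0.462, adjusted p = 0.218). mt-Nd6, the subunit on the other strand of that genome, was at 68.5, 61.7 and 57.9 FPKM against 151 and 61.5 (0.76, SE 0.313). mt-Nd3 had low and scattered counts of 421, 717 and 167 in CharmeWT pools and 195 and 108 in CharmeKO pools (-1.33, SE 0.604, adjusted p = 0.273). Of the 7, 5 had estimates above 0. In edgeR's quasi-likelihood test 0 were called and 2 had an unadjusted p under 0.05 (18.6% of all genes). The likelihood ratio test called 1 and DESeq2 called 2 (6.27% and 8.35% of all genes). With the length and GC correction the median of the 7 went from 0.58 to -0.18, and without CharmeKO pool 1 it was -0.07, so their direction depends on both.

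**Figure D5:**
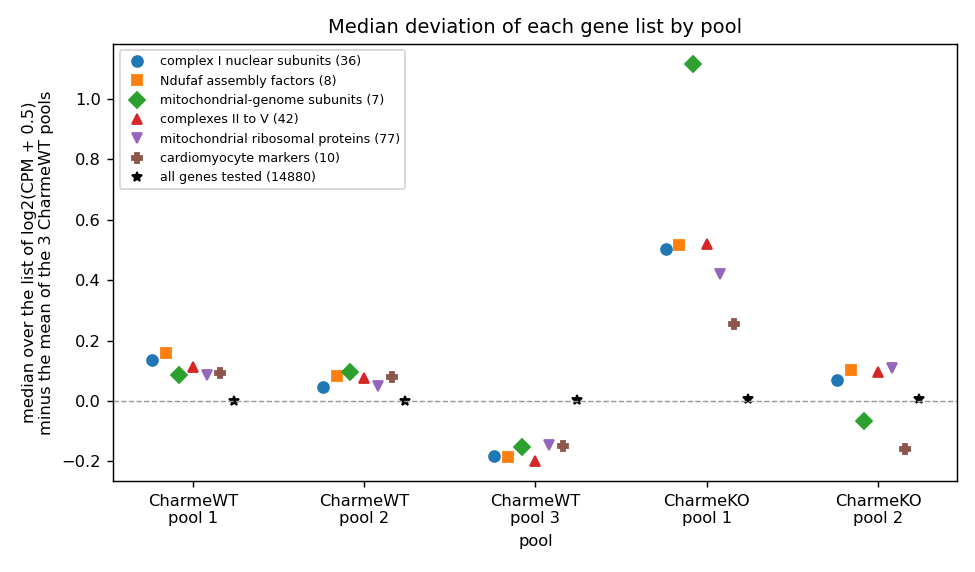
Median over each gene list of log2(CPM + 0.5) minus the mean of the 3 CharmeWT pools, by pool; numbers in the key are the genes in each list. In CharmeKO pool 1 the nuclear lists of mitochondrial genes stand between 0.42 and 0.52, the mitochondrial-genome subunits at 1.12 and the cardiomyocyte markers at 0.26. In CharmeKO pool 2 the mitochondrial lists lie between -0.07 and 0.11 and the cardiomyocyte markers at -0.16.

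Assembly factors without an Nduf symbol had a median log2 estimate of 0.10. Of the 11 listed, 10 were tested, 7 had estimates above 0 and 3 below, 0 were called by edgeR's quasi-likelihood test, the likelihood ratio test or DESeq2, and 0 had an unadjusted p under 0.05. Tmem70 had 0.32 (SE 0.191), and Acad9 had 0.29 (SE 0.188) with 5.23, 5.05 and 4.88 FPKM in CharmeWT pools and 7.05 and 5.34 in CharmeKO pools. Its partner Ecsit had an estimate below 0, with 29.5, 29.1 and 26.9 FPKM in CharmeWT pools and 21.1 and 25.9 in CharmeKO pools, both below every CharmeWT pool (-0.28, SE 0.178, adjusted p = 0.419).

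Among 13 regulators of nuclear respiratory genes, 7 estimates were above 0 and 6 below. Of these regulators 0 were called by edgeR's quasi-likelihood test, the likelihood ratio test or DESeq2. In the quasi-likelihood test 2 had an unadjusted p under 0.05 (18.6% of all genes). Esrra, the estrogen-related receptor alpha, was at 34.2, 35.6 and 37.7 FPKM in CharmeWT pools and 24.3 and 28.0 in CharmeKO pools. Both CharmeKO pools were below every CharmeWT pool (-0.45, SE 0.169, adjusted p = 0.214). Perm1, a muscle regulator of the same pathway, was at 27.0, 32.4 and 26.3 FPKM against 16.9 and 25.3 (-0.44, SE 0.213, adjusted p = 0.301). Ppargc1a, the coactivator PGC-1alpha, was at 13.4, 11.9 and 15.2 FPKM in CharmeWT pools, 33.0 in CharmeKO pool 1 and 13.1 in CharmeKO pool 2 (0.77, SE 0.316, adjusted p = 0.243). Its value in CharmeKO pool 2 was thus within the CharmeWT range, as were the medians of the complex I subunits and assembly factors.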

How the data were processed

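Whole hearts at PN2 were pooled by genotype and sequenced as polyA RNA with a stranded kit. The authors trimmed the reads (Cutadapt, Trimmomatic), aligned them to GRCm38 with STAR and took its counts per gene of Ensembl release 87 on the reverse strand, so antisense genes are counted apart. The deposited counts are raw whole numbers for 49671 genes. A deposited FPKM table was not used here.

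The 14880 genes that reached 10 counts in 2 or more pools were normalized by TMM and tested for genotype in all 5 pools with edgeR 4.0.16 (quasi-likelihood test, legacy = FALSE) in R 4.3.3, with Benjamini-Hochberg adjustment over all genes. Genes were called below an adjusted p of 0.1 when 1 genotype or both averaged 1 FPKM or more. Thresholds follow the study, whose test, the likelihood ratio test, is an alternative here. Every adjusted p in the text is from the quasi-likelihood test unless another is named. FPKM used exon unions of GENCODE release M21, and 23 genes without a length were set to 1000 bases. SE is the size of the log2 fold change over the square root of F. Fits were tested on simulated data. With 3 pools against 2 the smallest exact two-sided permutation p is 0.1, so single values were not permuted.

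The Nduf genes and lists were chosen with earlier results of these data known. Named with values are, per role, the genes with the highest level and the highest and lowest estimate, the 3 lowest p in each direction, the 2 genes that differed most between CharmeKO pools, those at the edge of the count minimum, and up to 3 genes of lowest p per other list. The values of 1 member are not reported here, and it enters the counts and medians alone. Ndufb2, Ucp1 and other genes beside these were chosen after their values were seen. As alternatives, the fit was changed to the likelihood ratio test, DESeq2 1.42.0, the legacy quasi-likelihood form, RLE and upper-quartile normalization, no count filter, no FPKM floor, a stricter threshold (0.05), a block on the replicate number, a spline correction (4 degrees of freedom) on length and GC, both together, a fit without mitochondrial-genome and salivary genes, and each pool left out. Scaling by library totals and lengths of principal transcripts were added after seeing the data. Reads were counted without molecular identifiers.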

Additional observations from a re-analysis of the deposited data

How the results depend on the processing

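Of the 36 complex I subunits, 0 were called; DESeq2 called 1, and leaving out each pool gave 0 to 19. Of the 8 assembly factors, 0 were called, and leaving out each pool gave 0 to 3. Both highest counts came without CharmeKO pool 2, where the lone CharmeKO pool is taken to vary as the CharmeWT pools do; every other alternative run gave 0. All genes called, 305, were 933 with the likelihood ratio test, 1122 with DESeq2, 111 at an adjusted p under 0.05 and 105 with library totals, and 0 (without CharmeWT pool 3) to 4607 (without CharmeKO pool 2) with each pool left out. The median log2 fold change of subunits, 0.32, was 0.14 with the length and GC correction and 0.14 with library totals, and 0.061 to 0.49 with each pool left out. That of assembly factors, 0.30, was 0.11 with the correction and 0.094 to 0.51 with each pool left out. The causes were not tested. The range of subunit levels was 186.5-fold with lengths of principal transcripts (34 subunits). Depth limits Ndufb4c and Ndufs6b most, at 3 to 19 counts per pool.

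CharmeWT and CharmeKO pools share 2 replicate numbers, and no source says that a number marks a litter or day. Deviations of same-numbered pools from their group means correlated at 0.18 and 0.12. Blocking on the replicate number called 0 of the 48 genes and 210 in all, with medians of 0.22 for subunits and 0.20 for assembly factors. The block with the length and GC correction called 30 genes in all, with medians of 0.073 and 0.032.

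Some uncalled estimates changed sign. With the length and GC correction, alone and with the block, Ndufa4 was -0.17 and -0.24, Ndufaf1 -0.10 and -0.22, Ndufc2 -0.027 and -0.056, Ndufv2 -0.067 and -0.16, Ndufv1 0.11 and 0.018, Tmem70 -0.10 and -0.12, and mt-Nd6 -0.14 and -0.17. Without CharmeKO pool 1 and without CharmeKO pool 2, Ndufa2 was -0.023 and 0.48, Ndufaf2 -0.20 and 0.67, Ndufb4 -0.012 and 0.81, Ndufb9 -0.036 and 0.39, Ndufs7 0.025 and -0.35, mt-Nd6 -0.028 and 1.26, and Ppargc1a -0.042 and 1.28. With each pool left out, Ndufb10 ranged from -0.13 (without CharmeWT pool 3) to 0.073 (without CharmeWT pool 2) and Ndufv1 from -0.097 to 0.039 (without the same pools). Ndufv1 was 0.014 with upper-quartile normalization.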
